A study of Callithrix jacchus with 20 samples.

Results

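Marmoset primordial germ cell-like cells (cjPGCLCs) that had been induced without activin A (ActA) were compared with the somatic cells sorted beside them, across all genes. The comparison used 4 of the 20 libraries of the series, chosen by their labels alone, with 2 biological replicates of cjPGCLCs and 2 of somatic cells. All groups came from DPZ_cjiPSC#2, a single line of induced pluripotent stem cells of the common marmoset (Callithrix jacchus), cultured in the medium cjPSCM. The cells were first held for 24 h with CHIR, a GSK3 inhibitor that activates WNT signalling, and a ROCK inhibitor, which gave precursors of mesendoderm (pre-ME). They were then aggregated into embryoid bodies with BMP4, LIF, SCF and EGF and sorted on day 4. Double-positive cells were taken as cjPGCLCs and double-negative cells as somatic cells. The labels disagree on the sorted proteins: INTα6 and EpCAM in the sample titles, CXCR4 and EpCAM in the sample characteristics, and CXCR4 and INTα6 in the series description and the study's methods. A double-negative gate selects no cell type, so the somatic libraries can hold a mixture of cells. Another 4 libraries, sorted in the same way after a pre-ME step that contained ActA, and 2 unsorted pre-ME libraries without ActA served as reference levels.

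Primordial germ cells are the founders of eggs and sperm. In primates their specification from BMP-exposed precursors requires the transcription factors SOX17, PRDM1 and TFAP2C, and NANOS3 is an RNA-binding protein of the early germline. SOX17, PRDM1 and the chemokine receptor CXCR4 are also made by definitive endoderm, the layer that forms gut and liver and that is marked by FOXA2, FOXA1 and HNF4A. The other cells of an embryoid body commonly take on mesodermal, endothelial or amniotic character.

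The 4 libraries held between 4784964 and 14216617 reads counted on genes. Between 19.7% and 23.2% of the reads passed to the counter lay on no annotated gene. Levels are given as normalised counts, the deposited counts after the authors' size factors, listed for replicates 1 and 2 in that order. They are not corrected for transcript length and are compared only between libraries, never between genes. The log2 difference between replicates had an SD over genes of 0.477 for cjPGCLCs and 0.580 for somatic cells. In bulk libraries such as these, fewer cells that make an RNA and less of it per cell cannot be told apart.

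Of 25102 genes in the deposited table, 15797 had enough reads to be tested. In what follows a gene is called higher or lower in cjPGCLCs when its edgeR adjusted p was under 0.05, and differentially expressed (DE) when its log2 fold change was also above 2 in size. By these rules 1054 genes, 6.67% of those tested, were higher in cjPGCLCs and 468, or 2.96%, were lower. DE genes numbered 378 higher, or 2.39%, and 71 lower, or 0.449%. The difference was thus lopsided towards cjPGCLCs at both thresholds, while the median log2 fold change over all tested genes was 0. The median was 3.31 over the DE genes higher in cjPGCLCs and −2.39 over those that were lower. In 50 of the 378 no somatic read was counted, so that their fitted fold changes depend on the small count added by the model. Set against 3 counts over both somatic libraries, 38 of these 50 were at least 4-fold higher, and with all 50 at that bound the median was 3.05. On the somatic side 2 of the 71 had no read in cjPGCLCs. The counts rest on 2 libraries a group: without cjPGCLC replicates 1 and 2 and somatic replicates 1 and 2 in turn, 580, 751, 525 and 522 genes were higher and 218, 179, 215 and 173 lower, and without somatic replicate 2 the DE genes that were lower numbered 44. The plot of fold change against level shows that the excess on the cjPGCLC side extended to well expressed genes.

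**Figure D1:**
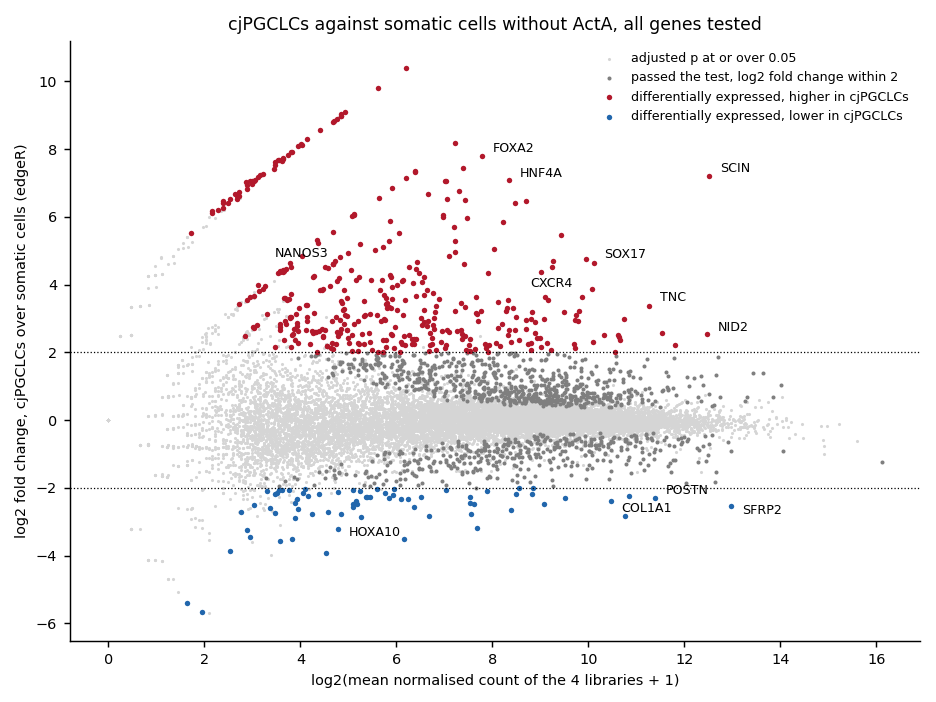
Each point is 1 of 15797 tested genes, with log2 of the mean normalised count of the 4 libraries plus 1 on the x axis and the log2 fold change of cjPGCLCs over somatic cells on the y axis. Red points are the 378 DE genes above the upper dotted line, blue points the 71 below the lower one, and the oblique rows of points at the upper left are genes without a somatic read.

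The 3 genes whose proteins are named for the gate, CXCR4, ITGA6 (INTα6) and EPCAM, were all higher in cjPGCLCs, and this is a check of the sort rather than a result. Germ cell markers followed the labels. NANOS3 was at 61.5 and 44.1 normalised counts in cjPGCLCs against 0 and 3.09 in somatic cells, a ratio of 30.5 (exact 95% interval 8.25–255, for counting error only). SOX17 was at 2152 and 2096 against 48.4 and 118 (log2 fold change 4.63, SE 0.53, adjusted p = 2.53e-05). PRDM1 was at 288 and 279 against 99.2 and 85.1 (1.65, SE 0.26, adjusted p = 0.000432). In all 3 genes the lowest cjPGCLC library lay above the highest somatic library, beside 57.7% of all tested genes whose groups did not overlap in either direction. TFAP2C was at 100.2 and 126 against 18.4 and 27.8 (2.25, SE 0.53, adjusted p = 0.0109), but its adjusted p rose to 0.055 without cjPGCLC replicate 2, 0.108 without somatic replicate 1 and 0.0733 without somatic replicate 2. Of the later germ cell genes, DDX4 had no read in any of the 4 libraries and DAZL had at most 1 count in each.

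Defining markers of endoderm stood beside the germ cell markers in the same double-positive libraries. Summed over FOXA1, FOXA2 and HNF4A, they came to 1369 and 808 normalised counts in cjPGCLCs against 13.8 and 1.55 in somatic cells, and 9.43 and 17.8 in the pre-ME cells. FOXA1 gave only 16.7 and 6.3 of the cjPGCLC sum and was too low to be tested. The 4 germ cell markers summed to 2601 and 2545 against 166 and 234, with 671 and 662 in pre-ME. Most of the cjPGCLC sum was SOX17, at 2152 and 2096, a gene that endoderm also makes, with 199 and 255 in pre-ME. PRDM1 was no higher in cjPGCLCs, at 288 and 279, than in pre-ME, at 408 and 290. TFAP2C stood at 100.2 and 126 beside 61.3 and 114 in pre-ME, and NANOS3 at 61.5 and 44.1 beside 3.54 and 2.97. The sum for visceral endoderm and liver genes (AFP, TTR and APOA1) was 1806 and 829 against 168 and 127, nearly all of it APOA1, with AFP and TTR too low to be tested. The labelled cell type therefore carried its own markers together with those of endoderm, and these libraries do not show whether one cell made both. The part of endoderm in the results below was not tested.

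Apart from PTPRC of blood, the tested markers of other cell types differed less between the gates than FOXA2, HNF4A or SOX17. The pluripotency genes POU5F1, NANOG and SOX2, the mesenchymal receptor PDGFRA, the amnion genes ISL1 and VTCN1 and the endothelial genes CDH5 and TIE1 did not pass the test. Of these, CDH5, TIE1, NANOG and SOX2 had the lowest adjusted p, at 0.0712, 0.078, 0.0752 and 0.0804, so that a difference is not excluded by the test. These genes, POU5F1 and ISL1 had groups that did not overlap, beside 57.7% of all tested genes. PDGFRA was as high in cjPGCLCs, at 7781 and 5585, as in somatic cells, at 8217 and 6436 (log2 fold change −0.11, SE 0.25). POU5F1 likewise stood at 1381 and 1458 against 1287 and 1187 (0.22, SE 0.17). Of the remaining defining markers, TEK, PRRX1 and TWIST1 were lower in cjPGCLCs and PTPRC and the amnion gene GABRP were higher. TWIST1, a bHLH factor of mesenchyme, was at 2145 and 1459 against 3927 and 3049 (−0.93, SE 0.25, adjusted p = 0.0255) and did not pass without cjPGCLC replicate 2 (0.256), somatic replicate 1 (0.23) or somatic replicate 2 (0.0516). GABRP was at 69.1 and 47.3 against 20.8 and 13.9 (1.82, SE 0.53, adjusted p = 0.042) and was lost whichever library was left out, with 0.298 and 0.0653 without cjPGCLC replicates 1 and 2 and 0.13 and 0.323 without somatic replicates 1 and 2. The blood markers came to 28.1 and 26.8 against 0 and 1.55, with PTPRC at 27.3 and 25.2 in cjPGCLCs. GATA1 and HBZ were too low to be tested. The neural sum came to 3.04 and 7.88 against 0 and 9.28.

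**Figure D2:**
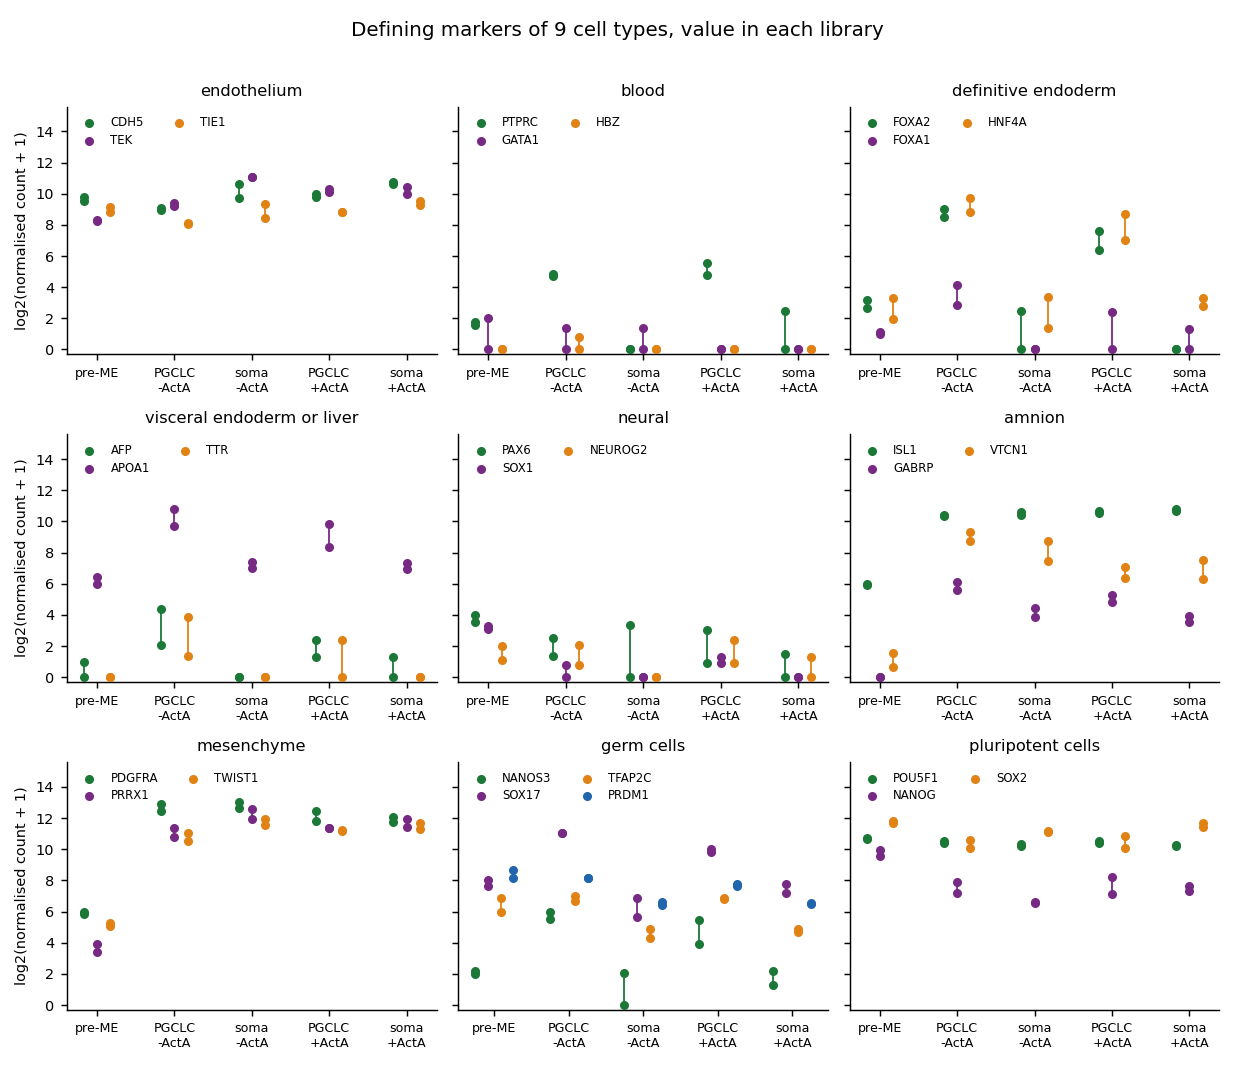
Each panel shows the defining markers of 1 cell type on the y axis, as log2 of the normalised count plus 1, in pre-ME and in both gates without and with ActA, with 1 point per library and a line joining the 2 replicates of a group. FOXA2 and HNF4A, like SOX17 and NANOS3, sit far higher in cjPGCLCs than in somatic cells, whereas PDGFRA, ISL1 and POU5F1 lie at like heights.

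The 2 cjPGCLC replicates held some of these markers in different proportion. SOX17, PRDM1 and CXCR4 differed little between them, with replicate 1 to replicate 2 ratios of 1.03, 1.03 and 1.05. The ratios for FOXA2, HNF4A and APOA1 were 1.45, 1.87 and 2.15, against a median of 1.01 over all tested genes. Of the endoderm genes that passed the test in either direction, 11 of 12 were higher in replicate 1, and of the epithelial junction genes 15 of 17. The lean was not limited to them, with 9 of 9 amnion and trophectoderm genes, 10 of 11 collagens, 11 of 12 cell cycle genes and 8 of 11 germ cell genes of the study's figures higher in replicate 1. Over all tested genes the share was 53.2%, and over the DE genes higher in cjPGCLCs it was 68.3%. For single markers the same order was seen with ActA, where the ratios for FOXA2 and HNF4A were 2.29 and 3.19 against 0.88 for SOX17 and 1.03 for CXCR4. Of the same list members, 9 of 12 endoderm, 16 of 17 epithelial junction and 8 of 11 collagen genes were higher in replicate 1 with ActA. For amnion and trophectoderm genes it was 6 of 9, for germ cell genes 7 of 11 and for cell cycle genes only 5 of 12. The germ cell markers were not uniform. NANOS3, on few reads, had ratios of 1.39 without and 2.97 with ActA, whereas TFAP2C had 0.795 and 0.996. These ratios compare single libraries and carry no test.

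Apart from the sort markers, endoderm genes had the highest median fold change of the lists. The counts of each list stand beside 6.67% higher and 2.96% lower over all tested genes. Of 30 listed genes 19 were tested, 11 were higher and 1 lower, with a median log2 fold change of 2.18. The list holds CXCR4, which is named for the gate, and without it 10 of 18 were higher, with a median of 1.92. HNF4A, a nuclear receptor of gut and liver, was at 835 and 446 against 9.22 and 1.55 (7.09, SE 0.79, adjusted p = 1.84e-05). FOXA2, a pioneer factor of endoderm, was at 518 and 356 against 4.61 and 0, a ratio of 254 (interval 70.2–2103). Each passed without any one of the 4 libraries. APOA1, the main protein of high-density lipoprotein, was at 1773 and 824 against 168 and 127 (3.18, SE 0.49, adjusted p = 0.000373). FOXA3 was at 113 and 64.6 against 13.8 and 10.8 (2.91, SE 0.71, adjusted p = 0.014) and did not pass without cjPGCLC replicate 1 (adjusted p = 0.139) or without either somatic replicate (0.0836 and 0.164). FOXA3, APOA1, GATA4 and GATA6 were picked once their values were known. The endoderm genes GATA4 and GATA6 went against the pattern and were present in both gates, at 3322 and 1743 against 2161 and 1813 for GATA4 and at 2397 and 1792 against 3139 and 2865 for GATA6, and neither passed. SOX7, shared by endoderm and endothelium, was the member that was lower (−1.31, SE 0.33, adjusted p = 0.0152). It did not pass without cjPGCLC replicate 1 (0.144) or 2 (0.061) or somatic replicate 2 (0.271).

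Genes of epithelial junctions and polarity were another list with many members higher in cjPGCLCs. Of 34 tested genes 17 were higher, 10 of them DE, and 0 were lower, with a median log2 fold change of 1.30, or 1.16 with genes unread in somatic cells at their bound. Without EPCAM, which is named for the gate, 16 of 33 were higher, 9 of them DE, with a median of 1.21. CGN, which encodes cingulin of the tight junction, was at 653 and 522 against 46.1 and 54.1 (3.56, SE 0.36, adjusted p = 7.37e-06). F11R, the junctional adhesion molecule JAM-A, was at 1331 and 1149 against 466 and 389.9 (1.56, SE 0.17, adjusted p = 1.66e-05). SPINT2, an inhibitor of membrane serine proteases, was at 1615 and 1113 against 332 and 258 (2.24, SE 0.25, adjusted p = 1.73e-05). All 3 passed whichever library was left out. Among members chosen after their values were seen, the polarity gene CRB3 was at 147 and 78.8 against 2.31 and 1.55, a ratio of 68.1 (interval 18.6–565). TJP3, a scaffold of the tight junction, was at 63 and 47.3 against 0 and 0, at least 21.1-fold higher when 3 counts are taken over both somatic libraries. E-cadherin was an exception. CDH1 was at 3.04 and 6.3 against 0 and 0 and did not pass (adjusted p = 0.0693), whereas N-cadherin, CDH2, was abundant in both gates and higher in cjPGCLCs, at 7189 and 7445 against 4610 and 4157 (0.76, SE 0.17, adjusted p = 0.00791), a call lost without cjPGCLC replicate 2 (0.0575) or somatic replicate 2 (0.113). The epithelial factor GRHL2, also chosen after its values were seen, was at 8.35 and 12.6 against 11.5 and 7.74.

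Among the germ cell genes shown in the study's figures, which the study chose on these samples, 10 of 43 tested were higher in cjPGCLCs and 1 was lower, with a median of 0.22. KLF5 and KLF4, Krüppel-like factors of naive pluripotency, had the smallest adjusted p among them. KLF5 was at 2332 and 1672 against 157 and 125 (3.86, SE 0.37, adjusted p = 4.66e-06) and KLF4 at 366 and 409.8 against 46.1 and 38.7 (3.22, SE 0.32, adjusted p = 6.17e-06). TBX3, a T-box repressor, was at 644 and 449 against 87.6 and 107 (2.50, SE 0.27). CXCL12, the ligand of CXCR4, was the member that was lower, at 12.9 and 6.3 against 76.1 and 44.9 (−2.47, SE 0.47, adjusted p = 0.00249).

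Of the other early germ cell and pluripotency genes, 4 of 25 tested were higher and 1 was lower, with a median of 0.40. OTX2, a homeobox gene of the epiblast and anterior neural plate, was at 374 and 359 against 23.1 and 57.2 (3.13, SE 0.53, adjusted p = 0.000898). UTF1, a chromatin factor of pluripotent cells, was at 43.3 and 56.7 against 0 and 4.64, a ratio of 17.4 (interval 5.76–85.7). Both passed without each library in turn. SALL4 was at 1664 and 2276 against 1178 and 1201 (0.74, SE 0.19, adjusted p = 0.0189), a call that held only without cjPGCLC replicate 1 and reached 0.248 without cjPGCLC replicate 2, 0.122 without somatic replicate 1 and 0.121 without somatic replicate 2. Naive and formative state genes had 7 of 8 tested members higher and 0 lower, with a median of 1.73, and KLF4 and KLF5 belong to this list too. The list held 14 genes. ARGFX was not in the deposited table, and KLF17, TFCP2L1, DPPA5, DNMT3L and FGF4 had too few reads to be tested. ANPEP, an aminopeptidase, was at 835 and 703 against 265 and 294 (1.48, SE 0.19, adjusted p = 8.16e-05). NLRP7, a maternal-effect gene of the oocyte, was at 56.2 and 37.8 against 16.1 and 9.28 (1.99, SE 0.42, adjusted p = 0.00552) and did not pass without cjPGCLC replicate 1 (0.0911) or somatic replicate 2 (0.139).

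Among the 15 genes of largest fold change with a symbol and at least 10 CPM (counts scaled to a common library total) in both cjPGCLC libraries were FOXA2 and HNF4A. HABP2, a hyaluronan-binding serine protease made by liver, was at 380.5 and 208 against 2.31 and 0, a ratio of 355 (interval 63.4–14027). STX3, the syntaxin of the apical membrane, was at 393 and 274 against 0 and 3.09, a ratio of 194 (interval 53.4–1604). PPP2R2C, a regulatory subunit of phosphatase 2A, was at 148 and 179.7 against 0 and 1.55, a ratio of 173 (interval 30.8–6858). The somatic side of these 3 ratios rests on 1 or 2 reads.

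GPX2, the gastrointestinal glutathione peroxidase, was at 334 and 177 against 2.31 and 1.55, a ratio of 155 (interval 42.6–1280). RBM47 and ESRP1, RNA-binding proteins that regulate epithelial splicing, had ratios of 118 (interval 40.3–576) and 104 (interval 35.3–504). MLNR, the receptor of the gut hormone motilin, was at 444 and 235 against 2.31 and 4.64 (6.51, SE 0.66). IHH, a hedgehog ligand of gut epithelium and visceral endoderm, was at 1069 and 567 against 6.92 and 10.8 (6.48, SE 0.65), and TSHR, the receptor of thyrotropin, at 487 and 205 against 6.92 and 4.64 (5.96, SE 0.76). All of these 6 genes were higher in cjPGCLC replicate 1 than in replicate 2. The sialyltransferase gene ST6GAL2 was instead higher in replicate 2, at 171 and 227 against 0 and 3.09. The amino acid transporter gene SLC38A8 and VWA5B2 had log2 fold changes of 6.01 and 6.06. All 15 passed without each of the 4 libraries in turn.

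**Figure D3:**
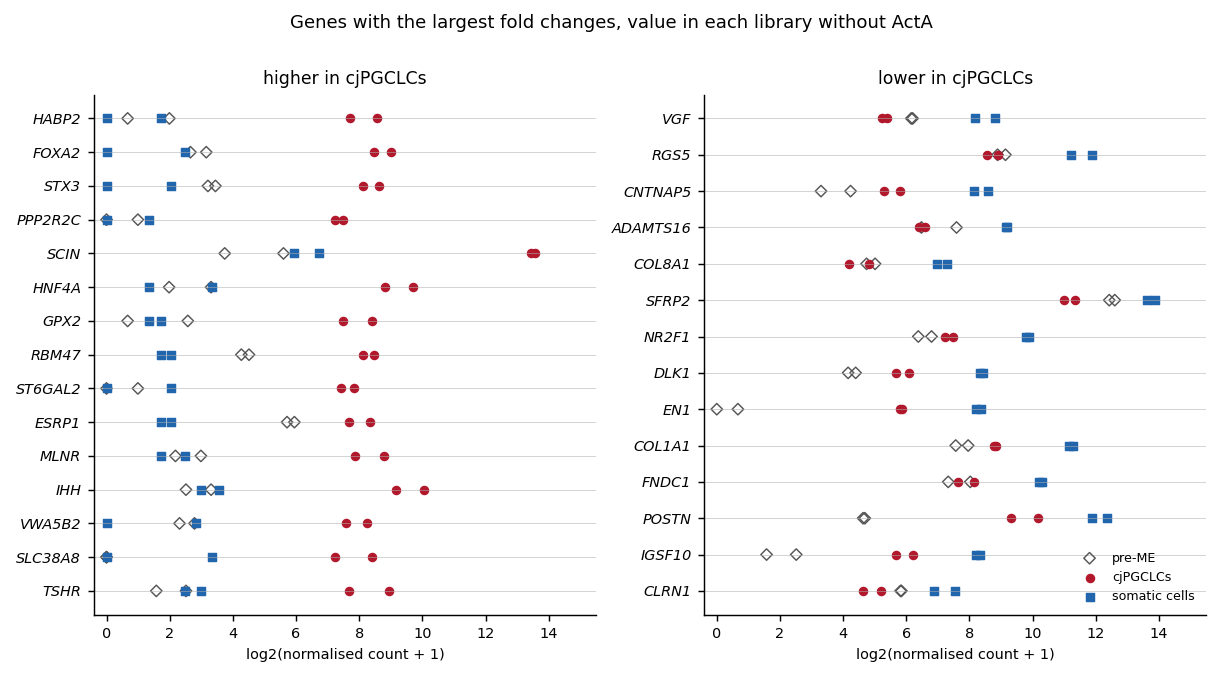
Log2 of the normalised count plus 1 (x axis) for genes with the largest fold changes each way, with 1 point per library for cjPGCLCs (red circles), somatic cells (blue squares) and pre-ME (open diamonds). Genes were drawn only where circles and squares do not overlap, and their distance is wider on the left.

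Ordered by the difference in normalised counts, the gap was led by SCIN, which encodes scinderin, a calcium-dependent actin-severing protein. It was at 12087 and 11210 in cjPGCLCs against 104 and 60.3 in somatic cells (7.21, SE 0.66, adjusted p = 2.76e-06), and at 12.4 and 47.6 in pre-ME. NID2, a nidogen of basement membranes, was at 11408 and 7869 against 1822 and 1555 (2.53, SE 0.27), and TNC, the matrix glycoprotein tenascin C, at 5239 and 3691 against 394 and 479.6 (3.37, SE 0.29). GATA2, a zinc finger factor of trophectoderm, amnion and blood progenitors, was at 5937 and 5798 against 1280 and 1300 (2.20, SE 0.22). UNC13B, known for priming synaptic vesicles, was at 5062 and 5143 against 897 and 842 and had one of the smallest adjusted p of all genes (2.57, SE 0.13, adjusted p = 7.37e-09). SLC7A2, a transporter of arginine and lysine, VEGFA, the endothelial growth factor, and the kinase gene PLK2 completed the 8, with log2 fold changes of 2.97, 2.47 and 2.51. Unlike the endoderm genes, UNC13B, GATA2 and PLK2 differed little between the cjPGCLC replicates. These 8 genes also passed without each library in turn.

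On the somatic side the fold changes were smaller. RGS5, a regulator of G protein signalling and pericyte marker, was at 373 and 481 in cjPGCLCs against 2380 and 3769 in somatic cells (−2.84, SE 0.47, adjusted p = 0.000773). SFRP2, a secreted WNT modulator, was at 2054 and 2596 against 12467 and 15001 (−2.55, SE 0.26, adjusted p = 8.21e-06). NR2F1, an orphan nuclear receptor of mesenchyme and neural tissue, was at 149.6 and 177 against 888 and 945 (−2.48, SE 0.28, adjusted p = 2.11e-05). Each of these genes passed without any one library.

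POSTN (periostin) was at 1151 and 634 against 5189 and 3797 (−2.30, SE 0.30), FNDC1 at 282 and 197 against 1264 and 1182 (−2.31, SE 0.31), and the collagen gene COL8A1 at 27.3 and 17.3 against 157 and 125 (−2.56, SE 0.39). The metalloproteinase gene ADAMTS16 had a log2 fold change of −2.66, CNTNAP5 of −2.77, IGSF10 of −2.27 and CLRN1 of −2.26. COL1A1, the chain of type I collagen, was at 460.2 and 438 against 2285 and 2469 (−2.39, SE 0.66, adjusted p = 0.0293). That call was lost whichever library was left out, with adjusted p of 0.0901 without somatic replicate 1, 0.12 without somatic replicate 2, 0.159 without cjPGCLC replicate 2 and 0.176 without cjPGCLC replicate 1. VGF, a neuropeptide precursor, had the most negative fold change of the 15 (−3.20, SE 0.90, adjusted p = 0.0305) and was also lost each time, with 0.07 without somatic replicate 2, 0.141 without cjPGCLC replicate 2, 0.145 without somatic replicate 1 and 0.198 without cjPGCLC replicate 1.

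Transcription factors of mesoderm and mesenchyme leaned to the somatic gate, with 10 of 47 tested lower and 3 higher and a median of −0.42. MEIS2, a homeobox cofactor of HOX proteins, was at 979 and 1021 against 2507 and 2511 (−1.31, SE 0.14, adjusted p = 1.64e-05). SNAI2, which represses epithelial genes, was at 1122 and 1098 against 2481 and 2564 (−1.17, SE 0.17, adjusted p = 0.000284). HAND2, a bHLH factor of heart, limb and lateral mesoderm, was at 836 and 403 against 3510 and 2567 (−2.26, SE 0.41, adjusted p = 0.00154). PRRX1 was at 2584 and 1773 against 6012 and 4024 (−1.18, SE 0.22, adjusted p = 0.00208) and missed the threshold without somatic replicate 1 (0.0562). Levels in cjPGCLCs were thus lower but far from absent, and pre-ME held only 6.48 and 6.93 counts of HAND2 and 9.43 and 13.9 of PRRX1. FOXC1 and FOXF2 were among the members that were higher. FOXC1 was at 847 and 608 against 309 and 329.5 (1.21, SE 0.29, adjusted p = 0.0124). FOXC1 did not pass without cjPGCLC replicate 1 (0.16), somatic replicate 1 (0.104) or somatic replicate 2 (0.0903). FOXF2 (1.44, SE 0.40, adjusted p = 0.0305) was lost in every case, between 0.0509 without cjPGCLC replicate 2 and 0.251 without cjPGCLC replicate 1, with 0.176 and 0.166 without somatic replicates 1 and 2.

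HOX genes, which set position along the body axis, were higher in somatic cells wherever they differed. Of 20 tested genes 5 were lower in cjPGCLCs, all of them DE, and 0 were higher, with a median of −1.24. HOXA10 was at 5.32 and 4.73 against 39.2 and 57.2 (−3.22, SE 0.56, adjusted p = 0.00121), and HOXA9 at 5.32 and 3.15 against 27.7 and 35.6 (−2.77, SE 0.50, adjusted p = 0.00161). HOXD3 was at 7.59 and 15.8 against 60 and 55.7 (−2.39, SE 0.43, adjusted p = 0.00157) and missed the threshold without cjPGCLC replicate 1 (0.0585). HOXA3 (−2.07, SE 0.52, adjusted p = 0.0172) did not pass without cjPGCLC replicate 2 (0.124) or somatic replicates 1 (0.0672) and 2 (0.119). All are low counts, so that their ratios carry wide error.

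Mesenchyme and matrix genes were divided, with 8 of 38 tested lower and 5 higher and a median of −0.38. FN1, which encodes fibronectin, was at 47484 and 36855 against 101191 and 98126 (−1.22, SE 0.23, adjusted p = 0.0023). DCN, the proteoglycan decorin, was at 3329 and 2238 against 10820 and 9100 (−1.82, SE 0.26, adjusted p = 0.000179). IGFBP7, a secreted binder of insulin-like growth factors, went the other way at 753 and 498 against 173 and 82 (2.36, SE 0.44, adjusted p = 0.00201), with 0.0615 without somatic replicate 2. The 2 nidogens lay on opposite sides, since NID1 was at 2309 and 1968 against 3291 and 3447 (−0.64, SE 0.13, adjusted p = 0.00419), a call that missed the threshold without cjPGCLC replicate 2 (0.0724) or somatic replicate 2 (0.0516).

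Of 41 tested collagen genes 8 were lower and 3 higher, with a median of −0.23. Over all tested genes 2.96% were lower and 6.67% higher, so that the higher side was near the general share. COL23A1, a transmembrane collagen, was at 1066 and 966 against 48.4 and 111 (3.63, SE 0.30, adjusted p = 1.06e-06), and COL19A1 at 64.6 and 61.5 against 9.22 and 7.74 (2.92, SE 0.43, adjusted p = 0.000262). COL6A2, a chain of microfibrillar type VI collagen, was at 592 and 304 against 1928 and 1146 (−1.74, SE 0.43, adjusted p = 0.0145) and did not pass without cjPGCLC replicate 2 (0.157) or somatic replicate 1 (0.164). Integrins and laminins had 7 of 29 tested higher and 3 lower, with a median of 0.14, or 6 of 28 and a median of 0.07 without ITGA6 of the gate. LAMA4, the α4 chain of vascular and mesenchymal laminins, was at 2297 and 2500 against 542 and 664 (2.00, SE 0.21, adjusted p = 8.54e-06), and LAMB1 at 10320 and 8016 against 3794 and 3609 (1.33, SE 0.18, adjusted p = 9.28e-05). ITGA4, the integrin α4 chain of blood and migrating cells, was at 102 and 110.3 against 20.8 and 12.4 (2.73, SE 0.37, adjusted p = 0.000105). ITGA9, whose product binds tenascin C, was lower, at 838 and 687 against 1734 and 1776 (−1.18, SE 0.20, adjusted p = 0.000838), while TNC itself was higher in cjPGCLCs.

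Of 24 tested endothelial and blood markers 9 were lower in cjPGCLCs and 2 higher, with a median of −0.89. Without somatic replicate 2 only 1 was lower, and without cjPGCLC replicate 1 or 2 it was 4. TEK, the angiopoietin receptor TIE2, was at 676 and 586 against 2119 and 2157 (−1.74, SE 0.24, adjusted p = 0.000159) and passed without each library. EGFL7 (−1.13, SE 0.20, adjusted p = 0.00163), ERG (−1.50, SE 0.32, adjusted p = 0.00497) and ITGA2B (−1.55, SE 0.33, adjusted p = 0.00492) were higher in somatic replicate 2 than in replicate 1, and without replicate 2 their adjusted p were 0.0664, 0.229 and 0.192. ITGA2B was also lost without cjPGCLC replicate 2 (0.0569). The 2 markers that were higher in cjPGCLCs were PTPRC, the leukocyte antigen CD45, at 27.3 and 25.2 against 0 and 0, at least 9.71-fold higher, and PECAM1, at 2622 and 2597 against 1411 and 1617 (0.80, SE 0.21, adjusted p = 0.0193). PECAM1 is also made by germ cells and pluripotent cells. It passed in none of the leave-outs (0.103 and 0.083 without cjPGCLC replicates 1 and 2, 0.172 and 0.0778 without somatic replicates 1 and 2).

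In the BMP, NODAL and TGF-beta pathway 7 of 51 tested genes were higher and 3 lower, with a median of −0.05. Among ligands, BMP2 was at 136 and 83.5 against 9.22 and 9.28 (3.59, SE 0.67, adjusted p = 0.00201) and TGFB2 at 417 and 525 against 99.2 and 107 (2.20, SE 0.25, adjusted p = 2.08e-05). The 2 BMP antagonists that differed did so in opposite directions. CHRD (chordin) was at 1046 and 627 against 217 and 164 (2.17, SE 0.27, adjusted p = 5.87e-05). GREM1 (gremlin 1) was at 147 and 179.7 against 632 and 840.1 (−2.17, SE 0.44, adjusted p = 0.0038), with 0.0674 without cjPGCLC replicate 1. TGIF1, a repressor of SMAD-driven transcription, was at 1574 and 1571 against 989 and 967 (0.70, SE 0.13, adjusted p = 0.00171).

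WNT pathway genes had 11 of 57 tested higher and 3 lower, with a median of −0.05. ZNRF3, which removes WNT receptors from the membrane, was at 920.4 and 832 against 357 and 360.5 (1.31, SE 0.16, adjusted p = 4.18e-05). NOTUM, an extracellular WNT deacylase, was at 859.7 and 797 against 355 and 368 (1.21, SE 0.18, adjusted p = 0.000225), and DKK1, which blocks the LRP co-receptors, at 2021 and 2736 against 710.3 and 594 (1.89, SE 0.31, adjusted p = 0.000799). Activating members were higher too, among them LGR4 (0.75, SE 0.15, adjusted p = 0.00276), a receptor of R-spondins, which was picked once its value was known and reached 0.0606 without somatic replicate 1. The receptor gene FZD5 was at 224 and 317 against 18.4 and 37.1 (3.22, SE 0.47, adjusted p = 0.000242). Besides SFRP2, the nuclear effector LEF1 was lower, at 1811 and 1790 against 4656 and 4686 (−1.36, SE 0.26, adjusted p = 0.00246). WNT2 was at 125 and 67.8 against 314 and 269 (−1.54, SE 0.42, adjusted p = 0.0286) and did not pass without cjPGCLC replicate 2 (0.23) or somatic replicates 1 (0.152) and 2 (0.103).

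Genes of growth factor signalling differed in both directions. Of 46 tested genes for FGF, EGF, KIT and LIF signalling 10 were higher and 4 lower, with a median of 0.27, and CXCR4 of the gate is 1 of the 10. FGFR4 was at 1452 and 1232 against 533 and 469 (1.45, SE 0.13, adjusted p = 2.18e-06). Its co-receptor gene KLB (β-Klotho) was at 98.7 and 101 against 4.61 and 1.55, a ratio of 36.2 (interval 12.2–177). Of the EGF receptor family, ERBB3 was higher, at 991 and 1072 against 304 and 239.8 (1.95, SE 0.24, adjusted p = 5.34e-05), and EGFR was lower, at 139 and 117 against 547 and 631 (−2.18, SE 0.19, adjusted p = 2.18e-06). The receptor genes FGFR1, ERBB4, LIFR and IL6ST, named after their values were seen, were also higher (adjusted p of 0.0117, 0.0029, 0.00408 and 0.0169). Each of those calls was lost without at least 1 library. EGFR was the only receptor gene of the list that was lower. The feedback genes DUSP6 (−0.76, SE 0.16, adjusted p = 0.0047) and SPRY1 (−0.89, SE 0.21, adjusted p = 0.0131) were lower. DUSP6 was lost without cjPGCLC replicate 2 (0.085) or somatic replicate 1 (0.0685), and SPRY1 in each case, from 0.0593 without somatic replicate 1 through 0.0704 and 0.0979 without cjPGCLC replicates 2 and 1 to 0.118 without somatic replicate 2.

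In the NOTCH pathway 2 of 27 tested genes were higher and 3 lower, with a median of −0.02. Beside 6.67% higher and 2.96% lower over all tested genes, the higher side was near the general share. DLK1, an imprinted non-canonical ligand, was at 66.8 and 50.4 against 321 and 347 (−2.46, SE 0.46, adjusted p = 0.00195), and the target gene HEY2 at 205 and 195 against 539.6 and 497 (−1.35, SE 0.28, adjusted p = 0.00455). Imprinted genes were lower wherever they passed, 4 of 20 tested against 0 higher, with a median of −0.59. Besides DLK1 these were MEST, a hydrolase gene, at 1889 and 1532 against 5258 and 4771 (−1.53, SE 0.21, adjusted p = 0.000134), PLAGL1, a zinc finger gene of the imprinted network, at 515 and 432 against 932 and 1140 (−1.11, SE 0.19, adjusted p = 0.000847), and NNAT. NNAT (−0.65, SE 0.16, adjusted p = 0.0138) did not pass without cjPGCLC replicate 1 (0.0972) or 2 (0.0781) or somatic replicate 2 (0.204).

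Neural and neural crest genes had 2 of 23 tested higher and 4 lower, with a median of −0.51. Their higher side was near the 6.67% of all tested genes, beside 2.96% of all that were lower. TUBB3, the neuronal β-tubulin, was at 1331 and 1029 against 60 and 35.6 (4.70, SE 0.29, adjusted p = 5.62e-08). This entry, named here by its RefSeq gene number, was at 493 and 488 in pre-ME and at 1222 and 932 in the stem cells before induction. The midbrain gene EN1 was lower, at 57 and 55.2 against 293 and 328 (−2.45, SE 0.48, adjusted p = 0.00352). Amnion and trophectoderm genes had 7 of 28 tested higher and 2 lower, with a median of 0.00. Besides GATA2 and TBX3 they included ANXA3, at 493 and 370.4 against 108 and 118 (1.95, SE 0.26, adjusted p = 8.75e-05), and ELF3, an epithelial ETS factor, at 128 and 50.4 against 2.31 and 3.09, a ratio of 37.5 (interval 12.7–184). MSX1 was lower, at 2427 and 1808 against 5486 and 4244 (−1.18, SE 0.22, adjusted p = 0.00221).

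The medians of the lists of general cell functions lay between −0.31 and 0.22. Over all tested genes 6.67% were higher and 2.96% lower, and the chromatin, p53 and stress lists lay near these shares. Chromatin and DNA methylation regulators had 2 of 46 tested higher and 2 lower, with a median of −0.08. The leading members were HMGA2, a chromatin protein of embryonic cells, at 3367 and 4159 against 7135 and 8347 (−1.02, SE 0.13, adjusted p = 7.72e-05), and WDR77, a partner of the arginine methyltransferase PRMT5, at 1640 and 1630 against 1038 and 928 (0.75, SE 0.11, adjusted p = 0.000232). Cell cycle genes had 9 of 36 tested higher and 3 lower, with a median of 0.11, and those higher numbered 2 and 5 without cjPGCLC replicates 1 and 2 and 4 and 2 without somatic replicates 1 and 2. The mitotic kinase gene AURKA was at 517 and 495 against 302 and 283 (0.81, SE 0.12, adjusted p = 0.000353), and CCND1 (cyclin D1) was lower, at 1959 and 1964 against 4979 and 4490 (−1.25, SE 0.23, adjusted p = 0.0016). Glycolysis and hypoxia genes had 5 of 36 higher and 0 lower, with a median of 0.01. Besides VEGFA, ENO2 was at 219 and 203 against 41.5 and 29.4 (2.62, SE 0.44, adjusted p = 0.00091). Cholesterol genes had 7 of 28 lower and 3 higher, with a median of −0.31, and those lower numbered 0 and 1 without cjPGCLC replicates 1 and 2 and 0 and 4 without somatic replicates 1 and 2. Of these calls, those of the steps IDI1 (−0.55, SE 0.12, adjusted p = 0.00632) and FDFT1 (−0.61, SE 0.14, adjusted p = 0.0107) held only without somatic replicate 2, and otherwise lay between 0.0517 and 0.126 without cjPGCLC replicate 1 or 2 or somatic replicate 1. The p53 and cell death genes had 2 of 23 higher and 1 lower, with a median of 0.04, the latter being BCL2, an inhibitor of apoptosis, at 169 and 169 against 415 and 369.8 (−1.19, SE 0.18, adjusted p = 0.000267). Immediate early and dissociation stress genes had 2 of 28 higher and 1 lower, with a median of 0.22.

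**Figure D4:**
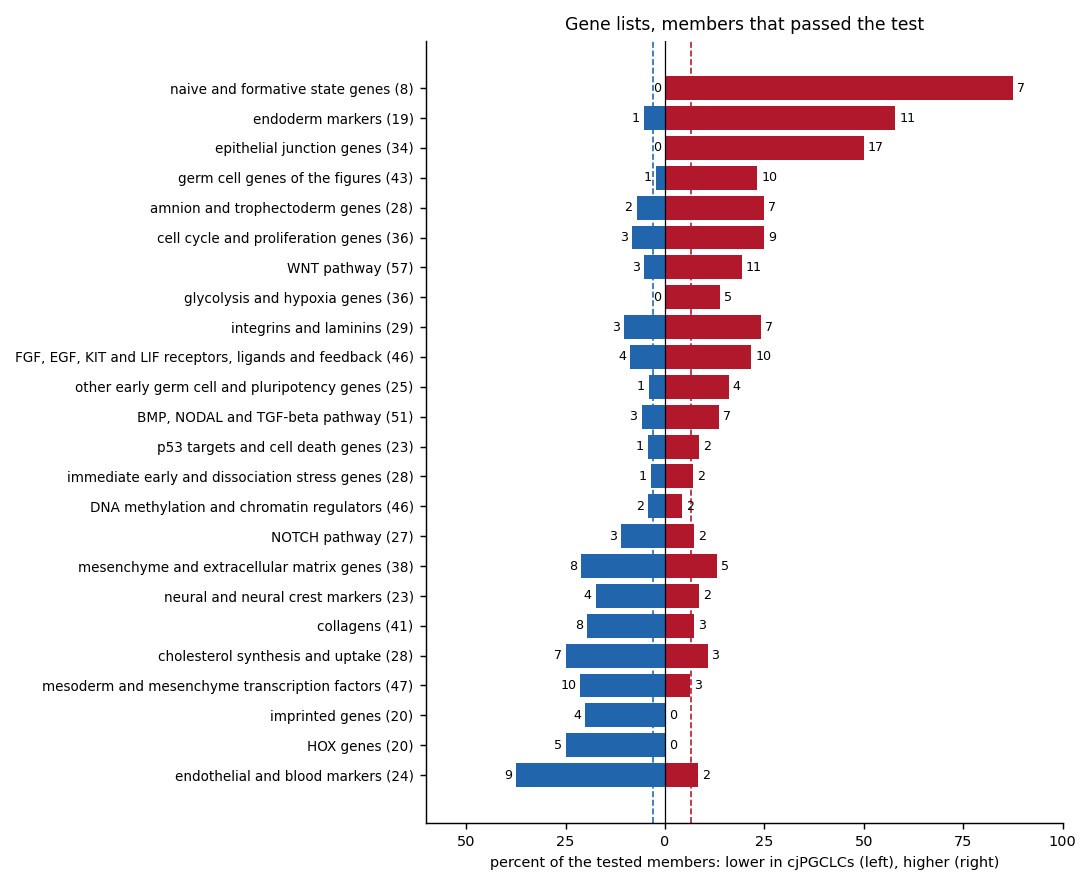
For each gene list, with its number of tested members in parentheses, the bars give the percent of those members that were higher (red, to the right) or lower (blue, to the left) in cjPGCLCs, with the counts at their ends and the percent over all tested genes as dashed lines. The naive state, endoderm and epithelial junction lists reach furthest right (7 of 8, 11 of 19 and 17 of 34), and the endothelial and blood list furthest left (9 of 24).

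Set against the pre-ME cells from which the embryoid bodies were made, most of the 378 DE genes higher in cjPGCLCs lay between the gates. Their pre-ME mean was between both sorted groups for 235 genes, below both for 95 and above both for 48. For 238 of them it was nearer to the somatic level and for 140 nearer to the cjPGCLC level. Pre-ME levels were far under those of cjPGCLCs for HNF4A, at 2.95 and 8.92, and for TNC, at 173 and 138. ITGA6 was instead higher in pre-ME than in either gate, at 3448 and 3264, and OTX2 was close to its cjPGCLC level, at 259 and 372. Of the 71 DE genes lower in cjPGCLCs, the pre-ME level was below both groups for 41, between them for 24 and above both for 6, and it was nearer to the cjPGCLC level for 61. By time and treatment the pre-ME cells differ from both gates alike, and these positions carry no test.

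The same sort after a pre-ME step with ActA gave fewer calls from separate libraries. There 581 genes (3.68%) were higher in cjPGCLCs and 183 (1.16%) lower, of which 223 (1.41%) and 26 (0.165%) were DE. Of the 378 DE genes higher without ActA, 370 were also higher in value with ActA, 219 passed and 163 were DE, which is 43.1% of 378 and 73.1% of 223. Of the 71 that were lower, 65 had the same sign, 23 passed and 12 were DE, which is 16.9% of 71 and 46.2% of 26. The median log2 fold change of the 378 was 2.36 with ActA and that of the 71 was −1.29. Since these genes were chosen on the libraries without ActA, their smaller size elsewhere is a description.

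The endoderm and germ cell marker sums were lower in the cjPGCLCs made with ActA, a difference that was not tested, while the endothelial sum was higher, at 2726 and 2444 beside 1435 and 1409. FOXA1, FOXA2 and HNF4A summed to 614 and 215 in those cjPGCLCs against 8.85 and 7.45 in somatic cells, and the 4 germ cell markers to 1290 and 1358 against 262 and 340. The lower germ cell sum was mostly SOX17, at 913 and 1034 in cjPGCLCs with ActA beside 2152 and 2096 without. TFAP2C was at 113 and 114 with ActA beside 100.2 and 126 without. PRDM1 was at 221 and 196 beside 288 and 279, and NANOS3 at 42.3 and 14.2 beside 61.5 and 44.1. Other genes had fold changes of like size under both protocols, with log2 fold changes of 4.29 with ActA and 4.52 without for CXCR4, 3.54 and 3.37 for TNC, 3.09 and 2.97 for SLC7A2 and 2.80 and 2.20 for TGFB2. On the somatic side FN1 was at 114174 and 82760 in cjPGCLCs with ActA against 110395 and 71370, a log2 fold change of 0.13 beside −1.22 without ActA, but the interaction did not pass (−1.35, adjusted p = 0.152). TEK, at 0.00 with ActA and −1.74 without, also fell short (interaction adjusted p = 0.0673).

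The difference between both sort effects was tested directly, as an interaction of ActA and gate, and 10 genes (0.0633%) passed. JADE2, a subunit of a histone acetyltransferase complex, was at 1633 and 1453 in cjPGCLCs against 164 and 196 in somatic cells without ActA and at 685 and 776 against 306 and 321 with ActA. Its log2 fold change was thus 3.11 without and 1.23 with ActA (interaction 1.88, adjusted p = 0.00228), and it passed without any one of the 8 libraries (highest adjusted p 0.0491). NEFL, the light neurofilament chain, FGFR4, MEDAG, PARP14 and WDFY2 also had larger fold changes without ActA. For NEFL they were 2.37 and 0.56, with somatic levels of 514 and 537 without and 1261 and 1157 with ActA. POU3F2, a POU factor of neural progenitors, was lower in cjPGCLCs without ActA, at 134 and 117 against 394 and 449, and not with ActA, at 669 and 408 against 411 and 425 (interaction −2.11, adjusted p = 0.0299). PID1 (−2.72), INKA2 (−2.38) and PDLIM3 (−2.45) changed in the same direction. The other 9 calls were lost in 6 or 7 of 8 leave-outs. They held without replicate 2 of the cjPGCLCs with ActA, and PDLIM3 and PID1 also without replicate 1 of the somatic cells with ActA, while their adjusted p lay between 0.0518 and 0.266 without any other library.

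**Figure D5:**
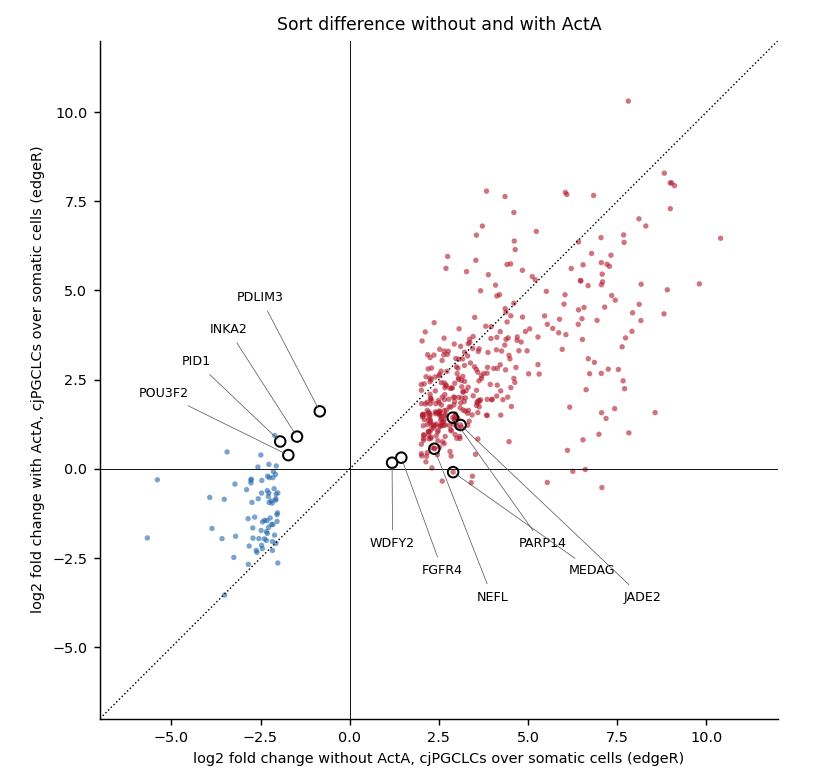
Log2 fold change of cjPGCLCs over somatic cells with ActA (y axis) against that without ActA (x axis) for the 378 (red) and 71 (blue) DE genes without ActA, with a dotted line of equal change. The change was larger in size without ActA for 309 of the 378 and 67 of the 71, and black rings mark the 10 genes that passed the interaction.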

How the data were processed

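Poly(A) RNA of 20 libraries, 10 conditions with 2 biological replicates each, had been sequenced from NEBNext Ultra II libraries. Per the labels and the study's methods, the authors aligned reads to calJac4 with STAR 2.7.0a after FastQC 0.11.8 and counted them on genes with HTSeq 0.11. The annotation release and strand setting were not given in the sources used here, so overlapping, antisense and paralogous genes can share reads. The authors deposited raw counts per gene, which were tested here, and a normalised signal (counts divided by DESeq2 size factors), which gave the levels. The deposited columns matched no sample outside the series, and reads on no gene were left out of library totals.

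Counts of all 20 libraries were fitted together with edgeR 4.0.16 (R 4.3.3; TMM, default expression filter, quasi-likelihood F-test, Benjamini-Hochberg adjustment), with 1 coefficient per condition, a common dispersion of 0.0203 on 10 residual degrees of freedom. All conditions share this estimate of the spread. The SE printed with a log2 fold change was derived from the test, as the size of the fold change over the square root of its F statistic. The gate effect was compared with and without ActA as an interaction. Alternatives were DESeq2 1.42.0, DESeq2 size factors within edgeR, fits of the 4 or the 8 sorted libraries alone, glmTreat, other expression filters, libraries thinned to 4784964 reads, a replicate block, and each library left out in turn. The edgeR steps were tested on simulated data.

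Named genes were the sort markers, the 15 genes each way with the largest fold change among DE genes with a symbol, at least 10 CPM in both libraries of the higher group and no overlap between groups, the 8 each way with the largest difference in normalised counts, up to 4 each way per list by adjusted p, defining markers of cell types, and up to 8 each way in the interaction. The members and lists were chosen with earlier results of these data known. Genes without a read in a group were set against 3 counts over that group, and ratios over 1 to 3 reads carry exact 95% intervals (SciPy 1.17.1). Intervals cover counting error only. Figures were drawn with Matplotlib 3.10.9. No genome sequence was used. A few named genes are not reported here.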

Additional observations from a re-analysis of the deposited data

Results flagged for a closer look

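In 10 genes the gate difference without ActA departed from that with ActA by the interaction test, against an unadjusted p under 0.05 in 987 genes. The interaction, as the log2 fold change without ActA minus that with ActA, was 1.88 for JADE2 (adjusted p = 0.00228). It was 1.81 for NEFL, 1.13 for FGFR4, 2.99 for MEDAG, 1.45 for PARP14 and 1.02 for WDFY2, with adjusted p between 0.0299 and 0.0351. In MEDAG, an adipogenesis gene, the gates stood at 197 and 132 against 27.7 and 18.6 normalised counts without ActA and at 57.5 and 79.6 against 86.8 and 59.6 with ActA. In PARP14, an ADP-ribosyltransferase gene, they stood at 845 and 819.5 against 119.9 and 108 without ActA and at 298 and 316 against 115 and 113 with ActA.

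The interaction was −2.11 for POU3F2, −2.38 for INKA2, −2.45 for PDLIM3 and −2.72 for PID1. PID1, which encodes an adaptor of insulin and LRP1 signalling, was lower in cjPGCLCs without ActA, at 296 and 202 against 1072 and 902, and higher in value with ActA, at 1314 and 802 against 809 and 452. PDLIM3 was at 32.7 and 37.8 against 55.3 and 69.6 without ActA, where it did not pass (adjusted p = 0.0874), and at 127 and 89.6 against 44.3 and 28.3 with ActA. JADE2 alone passed the interaction without each of the 8 sorted libraries in turn. What lies behind these differences was not tested.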

How the results depend on the processing

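Of the 148 named genes none changed direction under the alternatives run for single genes, which leave out glmTreat. L1TD1 could not be fitted in the fits of the 4 or the 8 sorted libraries, nor PTPRC under the filter of 1 CPM. Of the 148, 90 passed without each of the 4 libraries in turn, while 18 passed in none of those fits. With 1 library of a group left out, the lone sample is assumed to vary like the other groups. Genes higher in cjPGCLCs then numbered 522–751 and genes lower 173–218, DE genes 256–365 higher and 44–53 lower, and interaction genes 1–27. DESeq2 kept 306 of the 378 and 53 of the 71 DE genes. Fits of fewer libraries estimated the spread anew and gave 1117 lower genes from the 4 libraries alone (57.6% of calls higher, against 69.3%), and 1681 higher and 1268 lower from the 8 sorted libraries (57.0%). Without an expression filter 759 genes were lower. When the fold change itself had to exceed the threshold (glmTreat), 77 genes were higher and 0 lower, against 302 and 27 at an unadjusted p under 0.05. The interaction gave 92 genes by DESeq2, 125 from the 8 libraries, 22 after thinning and 269 without the filter. The cause of these shifts was not tested. The labels number the replicates but do not say whether samples with the same number came from the same embryoid bodies, and the main fit did not pair them. Differences between replicates correlated across genes between the gates at 0.0263 without and 0.108 with ActA, which does not settle whether they were paired. A replicate block gave 936 higher and 398 lower genes, DE genes of 355 and 55, and 26 interaction genes, and removed 8 of the 148 calls. Over the alternatives other than glmTreat the endoderm list had 7–13 members higher, the epithelial junction list 13–20, the naive state list 3–7 and the HOX list 3–9 lower, whereas the endothelial and blood list ranged over 1–13 lower, the mesenchyme and matrix list over 3–17, the mesoderm factors over 5–14, the collagens over 2–13 and the cholesterol list over 0–15, and cell cycle genes over 2–12 higher. Imprinted genes had up to 2 members higher. With 2 libraries a group and 1 line, small fold changes and genes of few reads could not be resolved.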

Other observations

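The genes below lie outside the lists and were chosen after their values were seen, with no list or test behind their grouping. APOC1, an apolipoprotein, was at 841 and 627 normalised counts in cjPGCLCs against 99.2 and 92.8 in somatic cells (log2 fold change 2.96, SE 0.24, adjusted p = 7.99e-07). MTTP, which loads lipid onto lipoproteins, was at 153 and 107 against 11.5 and 4.64 (4.12, SE 0.65, adjusted p = 0.000478). C3, the central complement protein, was at 717 and 303 against 13.8 and 17 (5.04, SE 0.61, adjusted p = 4.51e-05). GC, the plasma carrier of vitamin D, was at 237 and 52 against 0 and 0, at least 64.4-fold higher with 3 counts taken over both somatic libraries. HHIP, a hedgehog-binding inhibitor, was at 1504 and 2284 against 71.5 and 71.2 (4.74, SE 0.36, adjusted p = 5.06e-07) and, unlike these, was higher in cjPGCLC replicate 2.

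TH, tyrosine hydroxylase of catecholamine synthesis, was at 402 and 110.3 against 4.61 and 0, a ratio of 168 (exact interval 46.2–1388), with an adjusted p of 0.00292 that became 0.0604 without somatic replicate 2. CALCA, the calcitonin gene, was at 37.2 and 39.4 against 0 and 1.55, a ratio of 41.5 (interval 7.21–1659).

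PARP9, an ADP-ribosyltransferase family gene, was at 554 and 566 against 50.7 and 69.6 (3.21, SE 0.28, adjusted p = 2.18e-06). Its partner DTX3L, a ubiquitin ligase gene, was at 1542 and 1447 against 179.9 and 210.4 (2.95, SE 0.21, adjusted p = 3.04e-07), and PLSCR1, a phospholipid scramblase gene, at 845 and 789.6 against 73.8 and 105 (3.18, SE 0.26, adjusted p = 7.99e-07). PARP14 of the same family was among the genes with an interaction. On the somatic side CD44, the hyaluronan receptor, was at 206 and 147 in cjPGCLCs against 833 and 640.5 (−2.02, SE 0.36, adjusted p = 0.0014). F3, the tissue factor that starts coagulation, was at 140.5 and 154 against 535 and 664 (−2.02, SE 0.29, adjusted p = 0.000237), and TNF was at 18.2 and 18.9 against 64.6 and 88.2 (−2.04, SE 0.32, adjusted p = 0.000452).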
